A study of Mus musculus with 12 samples.

Results

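The effect of the Lpcat3 knockout in mice fed a diet rich in fat and sugar was described from 3 LKO-HFHS and 3 FLOX-HFHS liver libraries, 6 of the 12 libraries of the series, taken by their group labels with earlier results of these data known. The LKO-HFHS mice had the genotype LPCAT3flox/flox-cre and the FLOX-HFHS mice LPCAT3flox/flox. The controls thus carried the floxed alleles without Cre. All were male C57BL/6 mice, and both groups were fed the HFHS diet for 16 weeks, a feeding scheme the labels call a model of non-alcoholic steatohepatitis. The labels name the sugar once as sucrose and once as fructose. An age of 8 to 10 weeks is recorded, which is shorter than the feeding time and so cannot be the age at sampling. The promoter of Cre and the deleted exons are not given in the sources used here. The LKO-NC group (LPCAT3flox/flox-cre) and the FLOX-NC group (LPCAT3flox/flox), both on the control diet with 3 libraries each, entered the same fit and the comparison between diets. Whether every library is from its own mouse is not stated in the labels, so the p-values reflect only how far these samples spread, which may be technical.

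Lpcat3 encodes an enzyme of the membrane that joins polyunsaturated fatty acids to lysophospholipids, the reacylation step of phospholipid remodelling. In liver it is known to set the content of polyunsaturated phospholipids, to affect lipoprotein secretion, and to be induced by the sterol-sensing receptor LXR. PPAR alpha, a nuclear receptor bound by fatty acids, switches on genes of fatty acid oxidation in hepatocytes. Pulsed growth hormone in male mice acts through STAT5 and keeps up the genes that are higher in male than in female liver.

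The RNA was from liver by its labels. Of 15 hepatocyte markers 14 passed the filter on low counts, and Tf was not found under that symbol. Alb, the serum albumin gene, stood at 31619 ± 1631 CPM in LKO-HFHS livers and 37035 ± 6251 CPM in FLOX-HFHS livers (CPM are counts scaled to library size with TMM factors; SD, n = 3 each). In bulk liver, fewer cells of a type and less RNA per cell cannot be told apart. Total counts ran from 34951150 to 59205759 in the 6 libraries over 55401 genes, of which 15982 passed the filter and were tested. FLOX-HFHS replicate 1 stood apart. Its scaling factor was 0.644, against 1 to 1.46 in LKO-HFHS and 1.004 and 1.044 in the other FLOX-HFHS libraries, and genes of the mitochondrial genome took 36.8% of its counts, against 14% to 21.8% in the rest. A ribosomal RNA gene took 8.33% to 26.7% of the counts in LKO-HFHS and 18.1% to 25.9% in FLOX-HFHS. In the library labelled LKO-NC replicate 2 Lpcat3 went against its label. Fold changes on the control diet and their differences between diets are therefore given with and without that library.

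Lpcat3 (ENSMUSG00000004270, mm10, chr6:124663027-124704418, plus strand) was lower in every knockout library on the HFHS diet. It had 25.0, 25.9 and 29.4 CPM in the LKO-HFHS libraries, against 72.6, 80.6 and 75.7 CPM in the FLOX-HFHS libraries. Both groups were tight and far apart, with means of 26.7 ± 2.32 CPM in LKO-HFHS and 76.3 ± 3.99 CPM in FLOX-HFHS (SD, n = 3 each). The log2 fold change was -1.51 ± 0.35 (SE), a level 0.35 of that in FLOX-HFHS, with a p of 0.000948 before adjustment and 0.683 after it (edgeR quasi-likelihood test, Benjamini-Hochberg adjusted p over all genes tested). The fold change kept its size with each library left out in turn (-1.57 to -1.46). On the control diet Lpcat3 had 25.4, 65.0 and 19.4 CPM in LKO-NC, against 49.7, 49.9 and 61.9 CPM in FLOX-NC. The SE of the HFHS comparison was 0.20 without LKO-NC replicate 2, at the same fold change of -1.51 and an adjusted p of 0.11 (edgeR, Benjamini-Hochberg). DESeq2 called Lpcat3 at an adjusted p of 0.0277.

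Part of the Lpcat3 signal of the floxed livers thus remained in the knockout libraries, and the deposited transcript estimates do not place it. The coding transcript ENSMUST00000004381 was given 0, 0 and 1563 counts in LKO-HFHS, against 63, 4660 and 3573 counts in FLOX-HFHS. A transcript with a retained intron, ENSMUST00000135516, was given 724, 1625 and 1 counts in LKO-HFHS, against 1190, 0 and 0 counts in FLOX-HFHS. Most counts of a library thus went to one or the other transcript in both genotypes, so the split is uncertain. In the authors' FPKM, Lpcat3 had 14.5, 12.5 and 22.8 in LKO-HFHS, against 24.9, 31.5 and 29.8 in FLOX-HFHS. These groups did not overlap either, but the difference was smaller, -0.83 ± 0.38 (SE) on log2 of FPKM plus 0.1, with an adjusted p of 0.483 (limma).

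No other enzyme of the same remodelling cycle passed the threshold. Of 25 listed lysophospholipid acyltransferases and phospholipases 23 passed the filter. Mboat2 did not pass it, and Pla2g16 was not found under that symbol. Lpcat3 was the only one of the 23 with an unadjusted p under 0.05, where 3.25% of all genes tested were. The median log2 fold change of the list was 0.00, against 0.01 for all genes tested. Mboat7, which places arachidonate into phosphatidylinositol, had 15.5, 15.4 and 15.0 CPM in LKO-HFHS and 14.7, 16.1 and 15.5 CPM in FLOX-HFHS. Its groups lay on top of each other, at a log2 fold change of -0.01 ± 0.22 (SE). Lpcat1, Lpcat2 and Lpcat4, the other lysophosphatidylcholine acyltransferases of that name, lay between 0.03 and 0.35 on the log2 scale with SEs of 0.55 to 1.32, at 0 to 3.81 CPM, so sizeable differences were not detectable at this depth. Chpt1, of phosphatidylcholine synthesis, had a log2 fold change of -0.50 and was the only one of 19 tested genes of its list with an unadjusted p under 0.05.

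Genes near Lpcat3 were mostly close to their floxed levels. Among 35 tested neighbours within 500 kb the median log2 fold change was -0.11, with 1 gene higher and 1 lower at an unadjusted p under 0.05, against 1.73% and 1.52% of all genes. The lower one was Emg1 (-0.44 ± 0.17, SE), a gene of ribosome assembly on the opposite strand that starts at 124704085 and overlaps the end of Lpcat3. The higher one, Eno2, was at trace counts. Reads from the shared end of Lpcat3 and Emg1 can be told apart only where strand was used in counting, which is not stated.

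Sult1e1, which encodes a sulfotransferase that inactivates estrogens and is also in the series' title, was scarce. It had 0.308, 0.42 and 0.128 CPM in LKO-HFHS, from 13, 28 and 9 counts, against 1.73, 2.27 and 0.906 CPM in FLOX-HFHS, from 39, 135 and 44 counts. All LKO-HFHS values lay below all FLOX-HFHS values. The log2 fold change was -2.51 ± 1.31 (SE), with an adjusted p of 1 (edgeR, Benjamini-Hochberg), and -2.93 to -2.15 with each library left out.

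The remaining question was which other genes and functions differed. On the adjusted scale the edgeR test called no gene (0% of 15982). At an unadjusted p under 0.05 it gave 277 genes higher in LKO-HFHS (1.73%) and 243 lower (1.52%), a smaller share than the threshold itself. DESeq2 called 25 genes higher (0.166% of 15029) and 18 lower (0.12%), and limma voom with sample quality weights called 40 higher (0.25%) and 38 lower (0.238%). Both called 25 genes, 15 higher and 10 lower, which are 58.1% of the DESeq2 calls and 32.1% of the voom calls. The DESeq2 calls include Gm43064 (22.8), Gm21974 (22.0), Gm49721 (17.7) and Gm50461 (-23.1), log2 values too large to be read as sizes. Their groups overlapped, edgeR gave 8.99, 8.29, 3.75 and -8.83 in this order, and voom did not call them. Values of the groups did not overlap for 943 genes higher in LKO-HFHS (5.9%) and 875 lower (5.47%). Below, the 12 genes of smallest p in each direction that passed a floor on level and did not overlap between groups are described. Since non-overlap and small p chose them, those properties are no further support. Their edgeR adjusted p ran from 0.308 to 0.92 (Benjamini-Hochberg). DESeq2 called all 12 of the higher ones and 10 of the lower ones, and voom called 10 and 10.

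**Figure D1:**
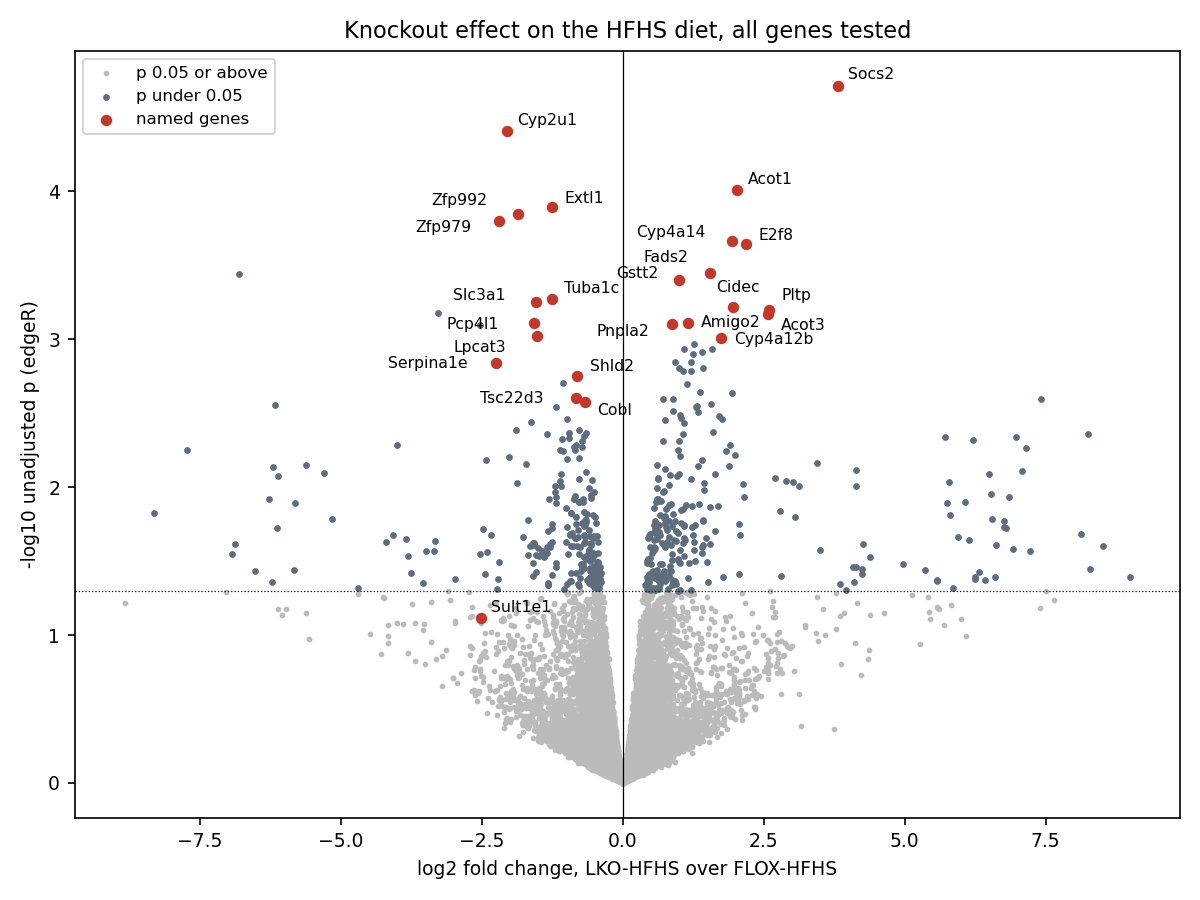
Each point is 1 of 15982 tested genes, with its log2 fold change (LKO-HFHS over FLOX-HFHS) on the x axis and -log10 of its unadjusted edgeR p on the y axis; red points are the named genes and the dotted line marks p of 0.05. Socs2 (3.82) and Cyp2u1 (-2.05) have the smallest p on their sides, and the points beyond 5 on either side are genes at trace counts.

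Socs2 led the ranking. It encodes a feedback inhibitor of growth hormone signalling that STAT5 induces. Socs2 had 28.1, 49.8 and 15.4 CPM in LKO-HFHS, against 2.49, 3.53 and 0.597 CPM in FLOX-HFHS. The lowest LKO-HFHS library was over 4 times the highest FLOX-HFHS library. The log2 fold change was 3.82 ± 0.58 (SE), with an adjusted p of 0.308 in edgeR (Benjamini-Hochberg), 1.65e-08 in DESeq2 and 0.0449 in voom, and ran from 3.28 to 4.40 with each library left out. On the control diet Socs2 had 18, 14.4 and 27.6 CPM in LKO-NC and 15.2, 16.0 and 20.3 CPM in FLOX-NC. The control diet groups overlapped, and FLOX-HFHS was the lowest of the 4 groups. Without any scaling factor Socs2 was the only gene edgeR called, at 4.25 ± 0.59 (SE) and an adjusted p of 0.0497 (Benjamini-Hochberg).

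Of the other 11 higher genes, Acot1, Acot3, Cyp4a14, Fads2, Cidec and Pnpla2 are described with their lists. Pltp, the phospholipid transfer protein of plasma lipoproteins and an LXR target, had 55.1, 24.8 and 32 CPM in LKO-HFHS, against 4.09, 7.32 and 7.08 CPM in FLOX-HFHS. The groups were well apart, with a log2 fold change of 2.59 ± 0.57 (SE), while the LXR list as a whole had a median of -0.02 over 15 genes. Gstt2, a glutathione transferase, had 60.5, 71.5 and 53.4 CPM in LKO-HFHS, against 32.8, 29.1 and 31.4 CPM in FLOX-HFHS (log2 fold change 0.99 ± 0.21, SE). E2f8, a cell cycle repressor that promotes polyploidy in hepatocytes, had 6.37, 9.27 and 3.39 CPM in LKO-HFHS, against 1.82, 1.53 and 0.864 CPM in FLOX-HFHS (2.19 ± 0.43, SE). Amigo2, a cell adhesion gene, and Cyp4a12b, a fatty acid hydroxylase of male liver, were the remaining higher genes, at 1.16 ± 0.26 and 1.75 ± 0.41 (log2, SE).

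Cyp2u1, a cytochrome P450 that hydroxylates long-chain fatty acids, led the lower genes. It had 9.66, 7.70 and 7.43 CPM in LKO-HFHS, against 54.1, 26.8 and 21.9 CPM in FLOX-HFHS. The LKO-HFHS values were tight and the FLOX-HFHS values were spread by replicate 1. The log2 fold change was -2.05 ± 0.33 (SE), with an adjusted p of 0.314 in edgeR (Benjamini-Hochberg) and 3.03e-05 in DESeq2, and was -1.58 without FLOX-HFHS replicate 1. Extl1, a glycosyltransferase of the heparan sulfate family, had 5.94, 4.64 and 5.35 CPM in LKO-HFHS, against 12.6, 13.1 and 12.1 CPM in FLOX-HFHS (-1.25 ± 0.23, SE). Both groups were tight. Tuba1c, an alpha tubulin gene, had 34.6, 23.7 and 27.2 CPM in LKO-HFHS, against 77.7, 68.7 and 57.7 CPM in FLOX-HFHS (-1.26 ± 0.27, SE). Tsc22d3, a glucocorticoid-induced leucine zipper gene, had 80.4, 98.9 and 74.5 CPM in LKO-HFHS, against 149, 137 and 164 CPM in FLOX-HFHS (-0.83 ± 0.22, SE). The remaining lower genes beside Lpcat3 and Serpina1e were Zfp992 (-1.85), Zfp979 (-2.20), Slc3a1 (-1.53), Pcp4l1 (-1.56), Shld2 (-0.81) and Cobl (-0.67) on the log2 scale. Zfp992 and Zfp979 are zinc finger genes of a repeated cluster on chromosome 4, where reads shared between copies make the values uncertain.

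**Figure D2:**
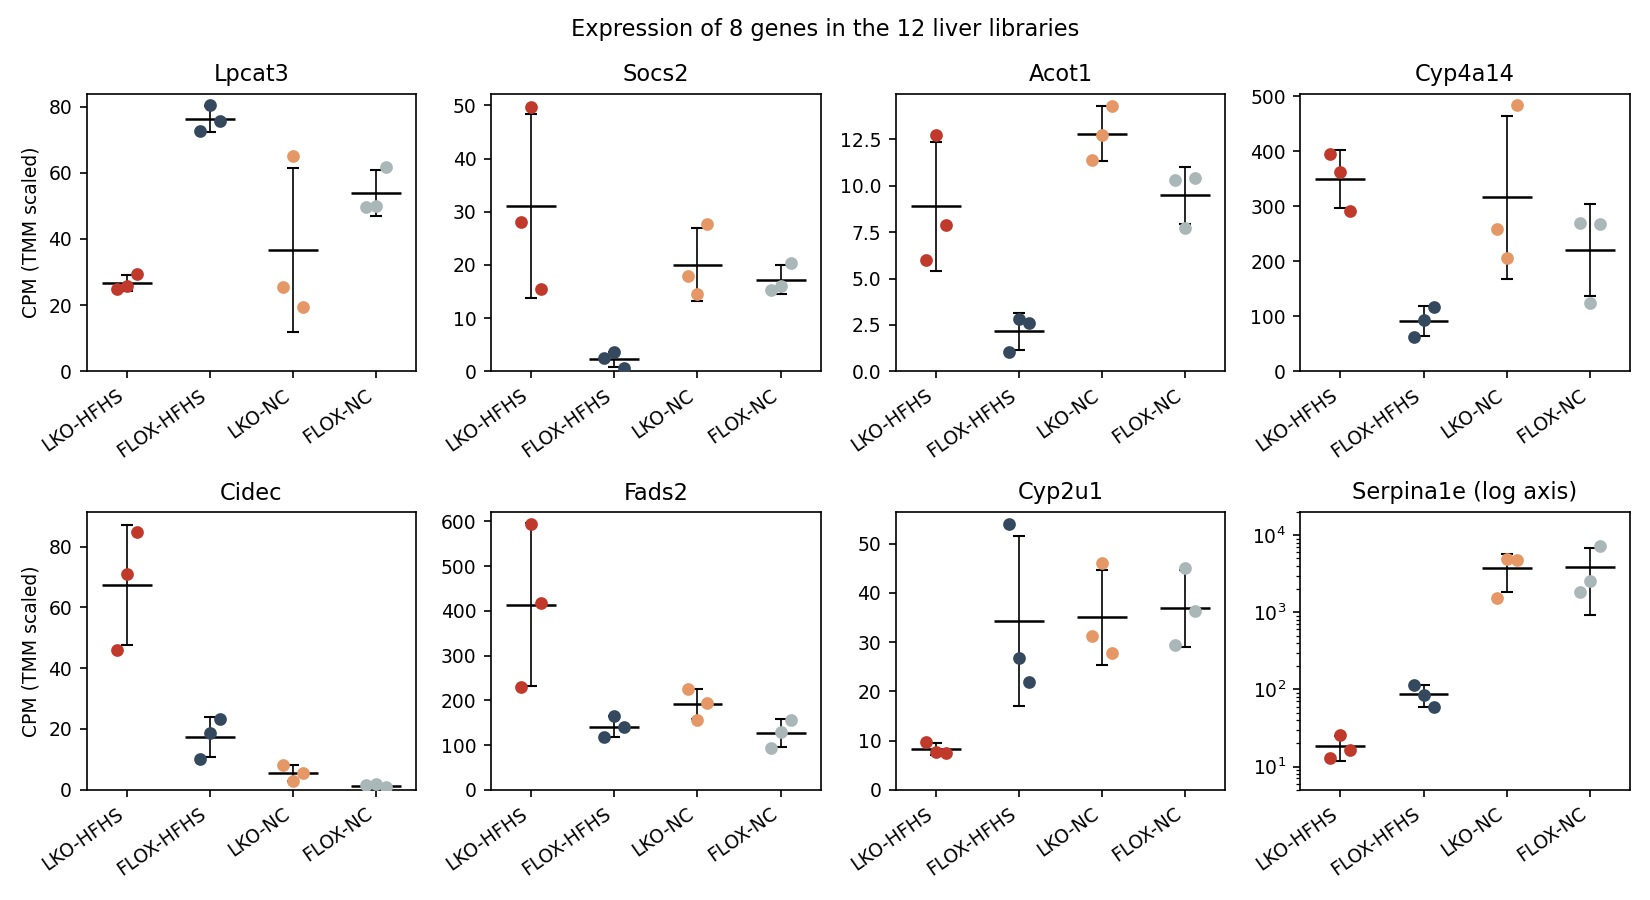
Expression in CPM (TMM scaled; log axis for Serpina1e only) of 8 genes in the 12 libraries, 1 point per library, with a horizontal line at the group mean and bars of 1 SD (n = 3). Lpcat3, Cyp2u1 and Serpina1e lie lower and the other 5 genes higher in LKO-HFHS than in FLOX-HFHS, with no overlap between these groups.

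The replicate numbers may pair the libraries (correlations of same-numbered deviations 0.438, 0.363 and 0.167). Under a block for that number, edgeR called 5 genes in place of 0, each at an adjusted p of 0.0474 (Benjamini-Hochberg). Acot1 was higher, at 2.05 ± 0.31 (log2, SE), and Cyp2u1 (-2.01), Zfp992 (-1.83), Gm4956 (-2.34) and Gm43410 (-3.33) were lower. Gm4956 and Gm43410 carry predicted names and were outside the naming rule.

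Functions were ranked by the median log2 fold change of 38 lists, read beside the same count for all genes. The lists were chosen with earlier results of these data known, so a rank is a description and no test of a function. Genes known to be higher in female mouse liver had the highest median (0.55), followed by PPAR alpha targets and fatty acid oxidation (0.47), lipid droplet genes (0.34), fatty acid synthesis and desaturation (0.32) and cholesterol synthesis (0.30). The lowest medians were those of the genes encoded in the mitochondrial genome (-0.94), genes known to be higher in male liver (-0.47), acute phase proteins (-0.30), endoplasmic reticulum stress (-0.26) and complement and coagulation (-0.21). By the share of tested members higher at an unadjusted p under 0.05, the PPAR alpha list came first with 30.8%, followed by the female list with 25% and the fatty acid synthesis list with 21.7%. By the share lower, the male list came first with 30%. The mitochondrial median rested on FLOX-HFHS replicate 1 and was -0.06 without it. No list of bile acid or triglyceride synthesis genes had a member under that threshold.

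**Figure D3:**
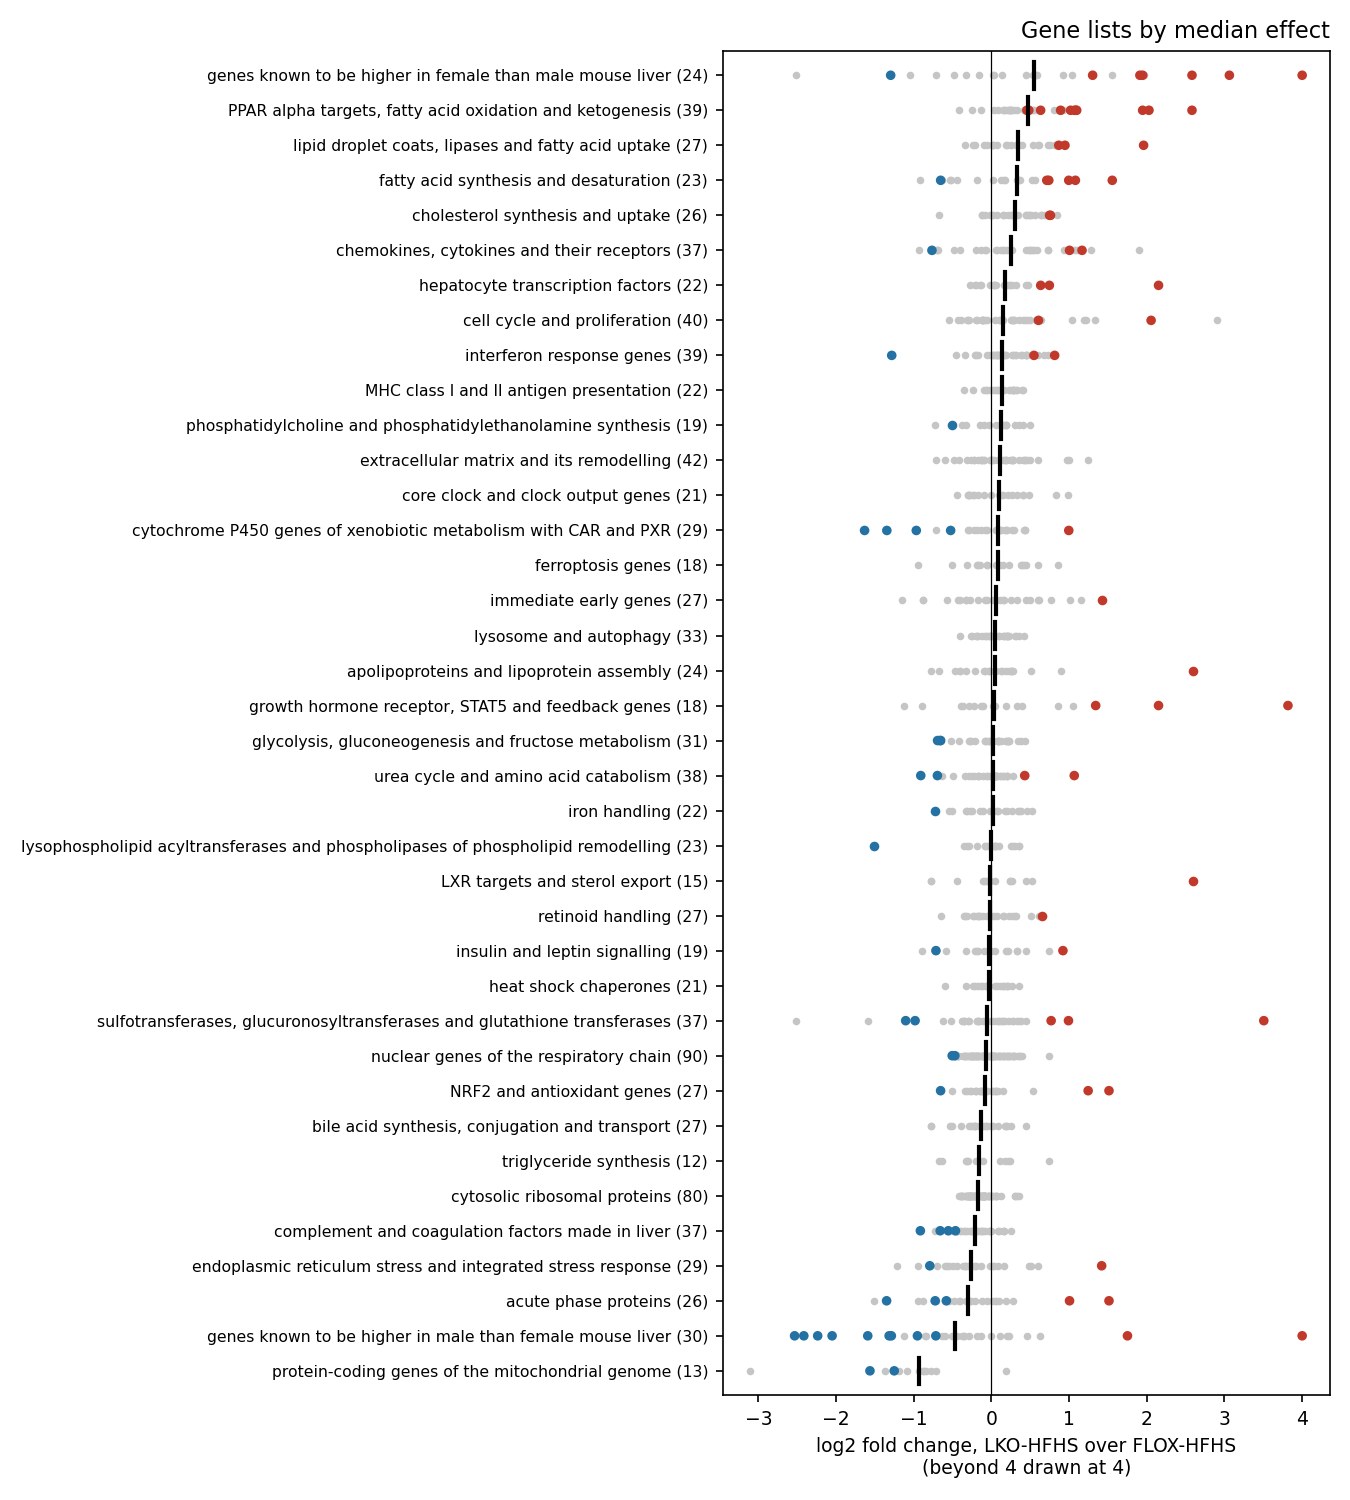
Log2 fold change (LKO-HFHS over FLOX-HFHS, x axis; values beyond 4 drawn at 4) of the tested members of 38 gene lists, with the number of members in brackets; the black bar is the list median, and red and blue points are members higher and lower at an unadjusted p under 0.05. The lists run from the female-biased genes (median 0.55) at the top to the genes of the mitochondrial genome (-0.94) at the bottom.

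Fatty acid oxidation genes under PPAR alpha had the largest share of higher members among the 38 lists. Of 40 listed symbols 39 passed the filter, and the other, Peci, was not found under that symbol. 36 of the 39 had a positive log2 fold change, as had 8264 of all 15982 genes tested. At an unadjusted p under 0.05, 12 were higher and 0 lower (1.73% and 1.52% of all genes tested). 13 did not overlap upward and 1 downward (5.9% and 5.47% of all genes). DESeq2 called 4 and voom 6 of the 39, all higher, where they called 0.166% and 0.25% of all genes higher. Over 18 alternative fits between 10 and 21 members were higher and 0 lower at that p, and the median ran from 0.25, when the share of ribosomal RNA was a covariate, to 0.89, with no scaling factor, where the median of all genes was 0.455. The median was 0.292 without FLOX-HFHS replicate 1, with 11 members higher. Mean log2(CPM + 1) of the 39 genes was 6.59, 6.82 and 6.82 in LKO-HFHS, against 6.00, 6.36 and 6.22 in FLOX-HFHS.

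The acyl-CoA thioesterases, which release free fatty acids from coenzyme A in the cytosol (Acot1), mitochondria (Acot2) and peroxisomes (Acot3, Acot4, Acot8), gave 5 of the 12 higher members. Acot1 had 6.01, 12.8 and 7.90 CPM in LKO-HFHS, against 1.02, 2.79 and 2.61 CPM in FLOX-HFHS (log2 fold change 2.03 ± 0.36, SE). Acot3 had 30.8, 44.1 and 24.9 CPM in LKO-HFHS, against 2.75, 10.6 and 3.15 CPM in FLOX-HFHS (2.58 ± 0.58, SE). Neither gene overlapped between the groups, and FLOX-HFHS replicate 2 was the highest of its group in both. Acot2 had 25.4, 19.2 and 22.9 CPM in LKO-HFHS, against 9.95, 10.9 and 11 CPM in FLOX-HFHS (1.09 ± 0.26, SE). Acot4 had 92.4, 77.3 and 61.2 CPM in LKO-HFHS, against 29.4, 50.4 and 34.2 CPM in FLOX-HFHS (1.02 ± 0.31, SE). Acot8 was closer, at 0.47 ± 0.18 (log2, SE). Acot2, Acot1, Acot4 and Acot3 lie in this order on the plus strand of chromosome 12, from 83987861 to 84060402 (mm10), and are similar enough that reads may be split between them.

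Of the Cyp4a family, microsomal omega-hydroxylases, Cyp4a14 and Cyp4a31 were among the higher members, and of the enzymes of mitochondrial entry Cpt1a was. Cyp4a14 had 395, 362 and 291 CPM in LKO-HFHS, against 62.1, 93.2 and 116 CPM in FLOX-HFHS. The groups were far apart, with a log2 fold change of 1.95 ± 0.38 (SE) and an adjusted p of 0.455 in edgeR (Benjamini-Hochberg) and 0.000625 in DESeq2. Cyp4a31, of the same family, had 7.91, 5.43 and 6.76 CPM in LKO-HFHS, against 4.49, 2.25 and 2.92 CPM in FLOX-HFHS (1.07 ± 0.27, SE). Cyp4a10 had 402, 181 and 220 CPM in LKO-HFHS and 222, 92.2 and 111 CPM in FLOX-HFHS, with replicate 1 highest in both groups and the values overlapping (0.92 ± 0.43, SE). Cpt1a, the carnitine palmitoyltransferase that admits long-chain fatty acids to mitochondria, had 132, 248 and 246 CPM in LKO-HFHS, against 103, 123 and 112 CPM in FLOX-HFHS (0.89 ± 0.24, SE). Its LKO-HFHS replicate 1 lay just above the FLOX-HFHS range and the other LKO-HFHS libraries well above it. The other entry genes, Cpt2 (0.18 ± 0.18) and Slc25a20 (0.08 ± 0.19), overlapped between the groups. Pdk4, the kinase that shuts pyruvate dehydrogenase, had 21.6, 18.1 and 20.1 CPM in LKO-HFHS, against 4.53, 11.9 and 11.4 CPM in FLOX-HFHS (1.10 ± 0.42, SE). FLOX-HFHS replicate 1 was the lowest, and the log2 fold change was 0.76 without it.

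Further members are enzymes within the oxidation spiral. Eci2 (0.63 ± 0.22), Acaa1b (0.48 ± 0.19) and Acadl (0.46 ± 0.20), an enoyl-CoA isomerase, a peroxisomal thiolase and the long-chain acyl-CoA dehydrogenase, were higher at an unadjusted p under 0.05 (log2, SE). Ehhadh (0.81 ± 0.40) and Hadhb (0.86 ± 0.42) were not, and their groups overlapped. The receptor gene Ppara had 27.2, 23.4 and 21.1 CPM in LKO-HFHS and 34.3, 24.9 and 26.1 CPM in FLOX-HFHS (-0.25 ± 0.24, SE). The secreted targets Fgf21 (0.51 ± 0.54) and Angptl4 (0.24 ± 0.21) overlapped between the groups.

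**Figure D4:**
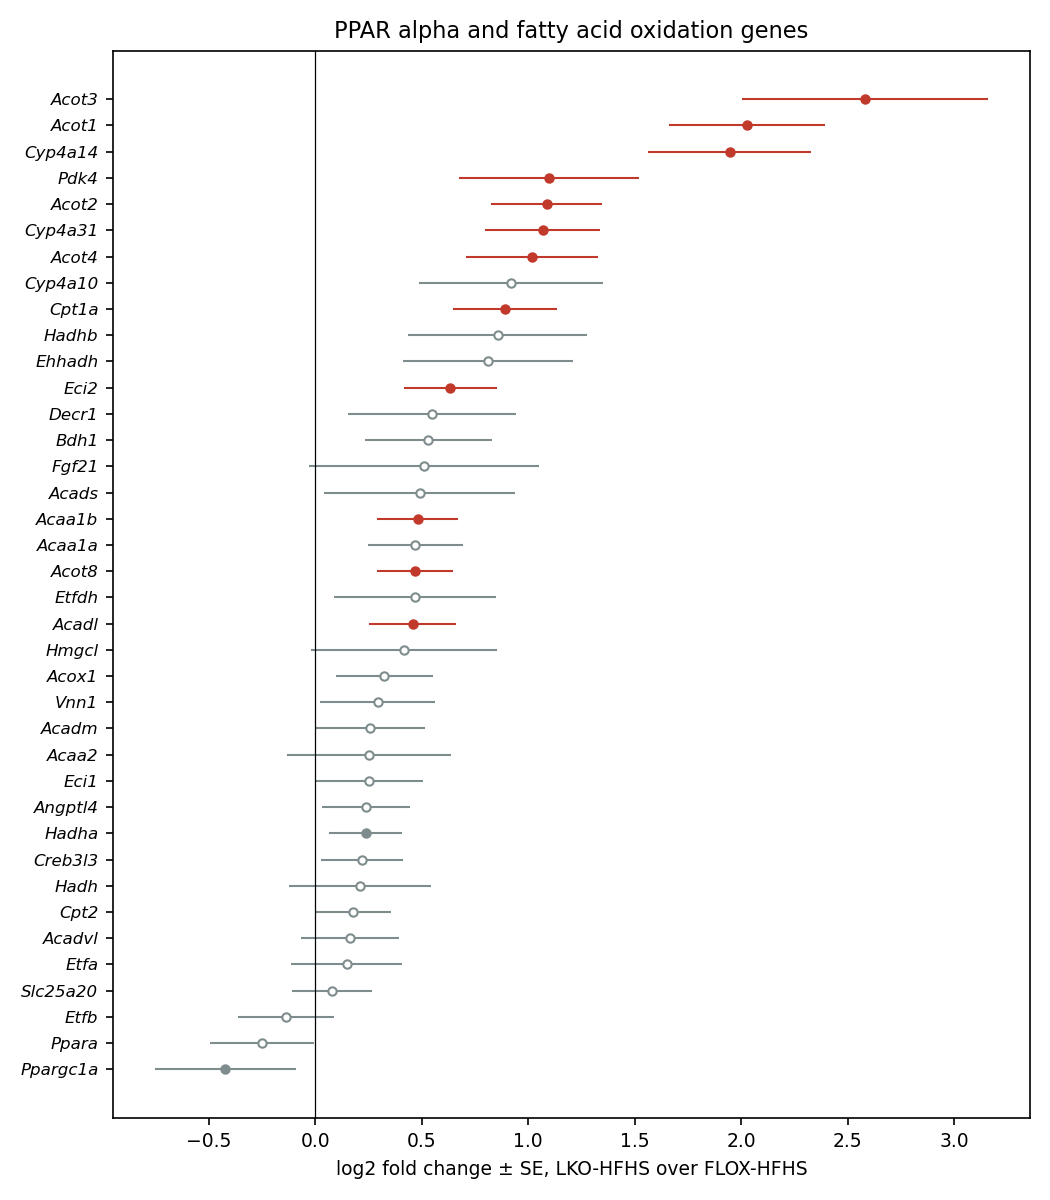
Log2 fold change with its SE (x axis, LKO-HFHS over FLOX-HFHS) for 38 of the 39 tested genes of the PPAR alpha and fatty acid oxidation list, ordered by size; red marks an unadjusted p under 0.05 and filled points mark genes whose groups do not overlap. Acot3, Acot1 and Cyp4a14 lie highest and Etfb, Ppara and Ppargc1a are the 3 below 0.

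Promoters of 3 of the higher members are shown because the list is defined by a receptor that binds DNA. PPAR alpha binds as a pair with RXR to a direct repeat of a hexamer. The 250 bases before the start of these genes, from RefSeq on GRCm38.p6 and all on the plus strand, have the hexamer AGGTCA or its reverse complement in capitals where it occurs. They lie at chr12:84009252-84009501 (Acot1), chr12:84038129-84038378 (Acot4) and chr19:3323051-3323300 (Cpt1a).
Acot1: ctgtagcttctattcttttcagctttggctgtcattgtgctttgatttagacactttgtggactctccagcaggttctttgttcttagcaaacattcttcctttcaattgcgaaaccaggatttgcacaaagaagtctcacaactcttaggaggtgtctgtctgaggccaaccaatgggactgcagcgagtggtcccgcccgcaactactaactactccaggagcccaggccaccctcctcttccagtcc
Acot4: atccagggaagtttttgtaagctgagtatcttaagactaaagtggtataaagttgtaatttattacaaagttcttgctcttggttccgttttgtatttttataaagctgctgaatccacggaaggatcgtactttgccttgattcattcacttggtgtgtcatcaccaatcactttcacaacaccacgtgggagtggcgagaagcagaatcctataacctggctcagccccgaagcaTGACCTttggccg
Cpt1a: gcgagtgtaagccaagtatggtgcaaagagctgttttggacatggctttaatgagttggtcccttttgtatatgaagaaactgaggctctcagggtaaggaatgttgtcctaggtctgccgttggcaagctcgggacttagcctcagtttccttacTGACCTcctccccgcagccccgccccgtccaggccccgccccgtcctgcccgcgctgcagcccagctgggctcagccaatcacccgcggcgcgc

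Acot1 holds no match, and the first base of the match lies 13 bases before the start in Acot4 and 94 bases before it in Cpt1a. The hexamer, searched on both strands, was in 5 of 32 promoters of tested list members (15.6%), from 29 genes with an entry, in 2 of 11 promoters of the higher members (18.2%) and in 14% of 32851 promoters of all genes. A direct repeat of 2 looser copies of the hexamer, AGGNCA, with 1 base between them, also searched on both strands and overlapping the hexamer where both match, was in 0 of those 32 promoters and in 0.338% of all. The 2 matching promoters of the higher members are those of Acot4 and Cpt1a, so the promoters shown are not a fair sample of the 11. The share of the hexamer among members was close to that of all promoters. This window is short, and a letter match is a description only.

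Lipid droplet genes lay on the higher side with the oxidation genes. Of 28 listed genes 27 passed the filter. A positive log2 fold change was found for 22 of them, and for 8264 of all 15982 genes tested. At an unadjusted p under 0.05, 3 were higher and 0 lower (1.73% and 1.52% of all genes). Cidec, whose protein fuses and enlarges lipid droplets, had 45.8, 71.1 and 84.8 CPM in LKO-HFHS, against 10.0, 18.6 and 23.2 CPM in FLOX-HFHS. The groups did not overlap, at a log2 fold change of 1.96 ± 0.43 (SE), called by DESeq2 and voom at adjusted p of 0.00748 and 0.0138. Pnpla2, the main triglyceride lipase of droplets, had 22.9, 26.5 and 28.9 CPM in LKO-HFHS, against 11.7, 14.8 and 16.4 CPM in FLOX-HFHS (0.87 ± 0.20, SE), also without overlap. Hilpda, an inhibitor of that lipase, had 2.94, 4.73 and 4.55 CPM in LKO-HFHS, against 1.16, 2.66 and 2.47 CPM in FLOX-HFHS (0.95 ± 0.43, SE). Plin2, the main coat protein of hepatocyte droplets, had 233, 371 and 451 CPM in LKO-HFHS and 148, 271 and 209 CPM in FLOX-HFHS. The Plin2 groups overlapped, and its difference of 0.75 ± 0.40 (log2, SE) missed the threshold. The number of higher members was 6 with the replicate block and 5 without LKO-HFHS replicate 1. It was 2 without LKO-HFHS replicate 2, without LKO-HFHS replicate 3, without FLOX-HFHS replicate 3 and without LKO-NC replicate 2.

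Within fatty acid synthesis, desaturases of polyunsaturated fatty acids were higher in LKO-HFHS, while other members of the list lay on both sides. Fads2, a desaturase of polyunsaturated fatty acid synthesis, had 230, 594 and 418 CPM in LKO-HFHS, against 118, 165 and 139 CPM in FLOX-HFHS. All LKO-HFHS values were above the FLOX-HFHS range, and the log2 fold change was 1.56 ± 0.32 (SE), with an adjusted p of 0.578 in edgeR (Benjamini-Hochberg), 0.00278 in DESeq2 and 0.0138 in voom. Fads1, its partner desaturase, had 248, 581 and 391 CPM in LKO-HFHS and 112, 268 and 197 CPM in FLOX-HFHS (1.08 ± 0.40, SE), with overlap. The elongases Elovl2 (1.01 ± 0.47) and Elovl5 (0.75 ± 0.35) of the same pathway lay on that side above the p threshold. LKO-HFHS replicate 2 was the highest library for Fads2, Fads1, Elovl2 and Elovl5. Fasn, the fatty acid synthase, had 251, 408 and 228 CPM in LKO-HFHS and 209, 678 and 394 CPM in FLOX-HFHS (-0.53 ± 0.38, SE). The log2 fold changes of Acly (0.12 ± 0.45) and Me1 (0.37 ± 0.40), which supply its substrates, were positive and below their SEs. Elovl6 (-0.92 ± 0.48), Acaca (-0.64 ± 0.35) and Srebf1 (-0.45 ± 0.28), the elongase of saturated chains, the first enzyme of fatty acid synthesis and its main transcription factor, overlapped between groups as Fasn did. Pklr, liver pyruvate kinase, had 364, 281 and 322 CPM in LKO-HFHS, against 524, 531 and 467 CPM in FLOX-HFHS, without overlap (-0.65 ± 0.24, SE).

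All 23 genes of the synthesis list passed the filter, with 5 higher (Fads2, Aacs, Fads1, Acacb, Acss2) and 1 lower (Pklr) at an unadjusted p under 0.05, against 1.73% and 1.52% of all genes. These counts were 8 and 1 with the replicate block. They rested on single libraries, with 1 higher and 0 lower without LKO-HFHS replicate 2, 2 and 4 without FLOX-HFHS replicate 1, 3 and 1 without FLOX-HFHS replicate 3, 7 and 2 without LKO-HFHS replicate 1, and 7 and 2 without FLOX-HFHS replicate 2. The list median of 0.32 was 0.09 without LKO-HFHS replicate 2 and 0.03 without FLOX-HFHS replicate 1.

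Sex-biased liver genes stood near both ends of the ranking. Of 31 genes known to be higher in female liver 24 passed the filter, 17 with a positive and 7 with a negative log2 fold change. At an unadjusted p under 0.05, 6 were higher and 1 lower (1.73% and 1.52% of all genes). 10 did not overlap upward and 2 downward (5.9% and 5.47% of all genes). The higher ones were Cyp4a14 and Acot3, also counted above, Cyp17a1, Fmo2, and the trace-level Cyp2c69 and Sult2a2. Cyp17a1, a steroid hydroxylase and lyase, had 21.2, 41.5 and 23.2 CPM in LKO-HFHS, against 7.06, 11.5 and 4.20 CPM in FLOX-HFHS (log2 fold change 1.91 ± 0.57, SE). Fmo2, a flavin monooxygenase, had 22.8, 25.6 and 21.4 CPM in LKO-HFHS, against 4.89, 9.19 and 14.1 CPM in FLOX-HFHS (1.30 ± 0.35, SE). Neither overlapped between groups. Ntrk2, a neurotrophin receptor gene, went the other way, with 3.50, 6.62 and 3.81 CPM in LKO-HFHS, against 11, 10.1 and 13.2 CPM in FLOX-HFHS (-1.30 ± 0.44, SE). Sult1e1, described above, is also on this list and was the other member without overlap downward. Cyp2b13 (-1.05 ± 0.49), Cux2 (-0.48 ± 1.74), Cyp2b9 (-0.32 ± 0.68) and Hao2 (-0.17 ± 0.71) lay below 0 with overlap (log2, SE). The lower count was 3 in place of 1 under the replicate block and without LKO-HFHS replicate 3, and 2 without FLOX-HFHS replicate 2.

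All 30 listed male-biased genes passed the filter, with 9 lower and 2 higher at an unadjusted p under 0.05 (1.52% and 1.73% of all genes). Serpina1e, a serpin of male liver, had 13, 25.2 and 16.4 CPM in LKO-HFHS, against 113, 85.0 and 59.7 CPM in FLOX-HFHS, without overlap (-2.24 ± 0.55, SE). These levels were far below the 1553 to 7181 CPM of the control diet libraries of both genotypes. Nat8, an acetyltransferase, had 6.32, 6.53 and 6.12 CPM in LKO-HFHS, against 10.6, 13.7 and 12.4 CPM in FLOX-HFHS (-0.95 ± 0.28, SE). The other 7 were Cyp2u1, Hsd3b5, Mup21, Mup7, Mup1, Cyp2d9 and Sdr9c7, and the 2 higher ones were Cyp4a12b and the trace-level Cspg5. Several rested on FLOX-HFHS replicate 1, as in Mup7, a major urinary protein, with 35.9, 50.6 and 16.1 CPM in LKO-HFHS and 500, 57.7 and 36.9 CPM in FLOX-HFHS. Cyp2d9 likewise had 184, 184 and 154 CPM in LKO-HFHS, against 444, 207 and 207 CPM in FLOX-HFHS. The 9 lower members became 3 without FLOX-HFHS replicate 1, 5 without LKO-HFHS replicate 1, 5 without LKO-HFHS replicate 3 and 5 with the replicate block. With no scaling factor the list median was -0.03 where that of all genes was 0.455, against -0.47 and 0.01 with TMM. Genes of the Mup, Serpina1 and Cyp4a families have near-identical copies, and how reads were split between them is uncertain.

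Genes of growth hormone signalling itself lay on both sides of 0. All 18 listed genes passed the filter, with a median of 0.03, and Socs2, Igfbp2 and Onecut1 were higher (16.7%) and 0 lower at an unadjusted p under 0.05, against 1.73% and 1.52% of all genes. Igfbp2, which binds insulin-like growth factors, had 211, 296 and 189 CPM in LKO-HFHS, against 54.6, 75.9 and 144 CPM in FLOX-HFHS (1.34 ± 0.42, SE). Onecut1, a hepatocyte transcription factor, had 15.8, 14.4 and 4.64 CPM in LKO-HFHS, against 3.82, 1.75 and 2.37 CPM in FLOX-HFHS (2.15 ± 0.73, SE). Neither overlapped, though LKO-HFHS replicate 3 lay close to the FLOX-HFHS range of Onecut1. The receptor Ghr (-0.40 ± 0.27), Stat5b (-0.22 ± 0.17), the hormone target Igf1 (0.04 ± 0.27), the second feedback gene Cish (1.05 ± 0.67) and the repressor Bcl6 (-1.13 ± 0.57) did not pass that threshold. The value of Bcl6 was -0.56 without FLOX-HFHS replicate 1.

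**Figure D5:**
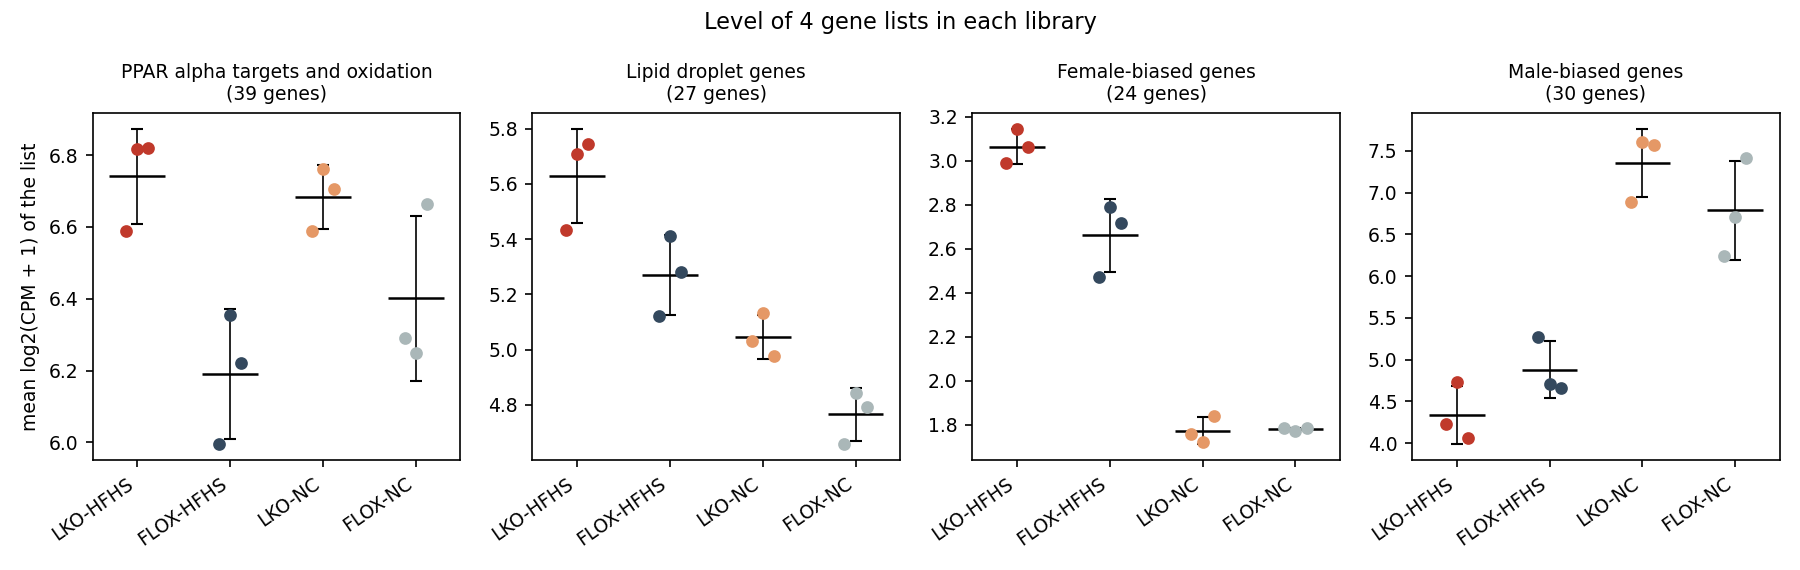
Mean log2(CPM + 1) over the tested members of 4 gene lists in each of the 12 libraries (y axis, scales differ between panels), with the group mean and bars of 1 SD (n = 3). The oxidation, lipid droplet and female-biased lists lie higher in every LKO-HFHS library than in every FLOX-HFHS library, and the male-biased lists overlap (4.22, 4.73 and 4.06 in LKO-HFHS, 5.27, 4.70 and 4.65 in FLOX-HFHS).

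Few markers of cell types passed the p threshold, and more of these were lower than higher. Over 15 cell type lists, 166 of 207 markers passed the filter, with 2 higher (1.2%) and 8 lower (4.82%) at an unadjusted p under 0.05, against 1.73% and 1.52% of all genes. Of the 8 lower ones 5 were in the hepatocyte, pericentral and periportal lists. In the hepatocyte list 12 of 14 tested markers had a negative log2 fold change, with a median of -0.19, and Tat and Serpina1c, a tyrosine aminotransferase and a serpin, were lower at that p (-0.70 ± 0.24 and -0.84 ± 0.32, log2, SE). The summed level of these 14 markers was 53040 to 55940 CPM in LKO-HFHS and 54616 to 71947 CPM in FLOX-HFHS, highest in FLOX-HFHS replicate 1. The 2 lower hepatocyte markers became 1 without LKO-HFHS replicate 1, 1 without FLOX-HFHS replicate 1 and 0 without LKO-HFHS replicate 3. The pericentral Cyp1a2 and Lgr5 and the periportal Hal were lower, and the pericentral Tbx3 and the periportal Hsd17b6 higher. The summed level of the 14 Kupffer cell markers was 281 to 321 CPM in LKO-HFHS and 240 to 448 CPM in FLOX-HFHS. That of the 15 markers of monocyte-derived and lipid-associated macrophages was 388 to 597 CPM in LKO-HFHS and 186 to 539 CPM in FLOX-HFHS, with 14 positive log2 fold changes, a median of 0.43 and 0 under the p threshold. For 12 cholangiocyte markers it was 209 to 259 CPM in LKO-HFHS and 80.0 to 309 CPM in FLOX-HFHS. Of these markers 11 had a positive and 1 a negative log2 fold change, with a median of 0.55 and 0 under the p threshold. The ranges of these 3 lists overlapped, and FLOX-HFHS replicate 1 was the lowest library in each. Of 13 markers of exocrine pancreas 2 passed the filter, with a summed level of 5.45 to 9.56 CPM in LKO-HFHS and 7.91 to 8.87 CPM in FLOX-HFHS. The part of cell makeup in the results was not tested.

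Whether the knockout effect differed between diets was asked with an interaction term. edgeR called no gene (0%), with 4.89% of genes at an unadjusted p under 0.05, and DESeq2 called 33. Socs2 differed most among the named genes. Its log2 fold change by the knockout was 3.82 on the HFHS diet and 0.22 on the control diet, a difference of 3.60 ± 0.75 (SE), with an adjusted p of 0.00409 in DESeq2. Without LKO-NC replicate 2 the control diet value was 0.41 and the difference 3.41. The difference ran from 3.04 to 4.18 with each HFHS library left out. Cyp2u1 had -2.05 on the HFHS diet and -0.08 on the control diet, or -0.32 without LKO-NC replicate 2. Its difference was -1.98 ± 0.46 (SE), with an adjusted p of 0.0366 in DESeq2, and -1.73 without that library. Of the 12 higher and 12 lower genes, DESeq2 also called a difference for Zfp979 (-2.60, adjusted p 0.0212) and Shld2 (-1.28, adjusted p 0.0265). In edgeR without LKO-NC replicate 2 these differences were -2.30 and -1.22. Cidec was higher in the knockout on both diets. It had 7.99, 2.73 and 5.57 CPM in LKO-NC, against 1.39, 1.98 and 0.786 CPM in FLOX-NC, a log2 fold change of 1.97 ± 0.45 (SE), which was 2.30 without LKO-NC replicate 2. The difference between diets for Cidec was -0.02 ± 0.63 (SE) in DESeq2. In edgeR without LKO-NC replicate 2 it was -0.34 ± 0.57 (SE). The median of the PPAR alpha list was 0.47 on the HFHS diet, and on the control diet 0.27, or 0.21 without LKO-NC replicate 2. The median of the male-biased list was -0.47 on the HFHS diet and 0.44 on the control diet, or 0.36 without LKO-NC replicate 2, and for the female-biased list it was 0.55 and 0.00, or -0.17 without that library. The difference of these medians was not tested. For the male-biased list FLOX-NC replicate 1 had the lowest mean log2(CPM + 1) on the control diet. It stood at 6.24, against 6.71 and 7.42 in the other FLOX-NC libraries and 6.89, 7.61 and 7.58 in LKO-NC. Its scaling factor was 0.752, and the ribosomal RNA gene took 32.7% of its counts, against 8.74% and 5.91% in FLOX-NC replicates 2 and 3. The control diet medians were not computed without it.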

How the data were processed

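Liver RNA was measured in 12 libraries, grouped by the treatment group in the labels. The authors deposited whole-number estimated counts per gene and transcript without normalization, and FPKM per gene. The tools named are cutadapt, FastQC, HISAT2, StringTie and edgeR, with build mm10, per the submitters' processing notes, with roles and versions not given in the sources used here. The plan had assumed plain counts, and the edgeR test was kept for these expected counts. Such estimates can divide reads between similar genes or transcripts.

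All 12 libraries entered 1 fit in R 4.3.3 with edgeR 4.0.16 (filterByExpr, TMM, robust quasi-likelihood, 8 residual degrees of freedom), with Benjamini-Hochberg adjustment over 15982 genes and calls at 0.05. SE is the fold change over the square root of F. DESeq2 1.42.0 and voom of limma 3.58.1 were alternatives, and FPKM was tested with limma for Lpcat3 only, chosen after seeing the data. The code was tested on simulated data.

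Named genes were Lpcat3, Sult1e1, the 12 higher and 12 lower genes of smallest p with 1 CPM or more on average in the higher group, no overlap and no predicted name, genes called if at most 30, and up to 4 of smallest p per list described. Further list members are given as description, chosen after their values were seen. The comparison, the members and the 53 lists were chosen with earlier results of these data known. Same-numbered libraries deviated together (r of 0.438, 0.363 and 0.167), over the 0.1 set for pairing, though LKO-HFHS replicate 3 and FLOX-HFHS replicate 2 reached 0.253. No 2 libraries held the same counts. 1 gene of the PPAR alpha list counts in its totals but is not reported here.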

Additional observations from a re-analysis of the deposited data

How the results depend on the processing

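Left-out libraries gave 0 calls each, with Lpcat3 between -1.57 and -1.46 and Sult1e1 between -2.93 and -2.15 (log2). The edgeR count of 0 genes called on the HFHS diet became 1 with no scaling factor, 5 with the replicate block, 43 in DESeq2 and 78 in limma voom, where 520 genes had an unadjusted p under 0.05 in edgeR. The block changed no other call among Lpcat3, Sult1e1 and the interaction. Lpcat3 passed the threshold only in DESeq2 (-1.52, adjusted p = 0.0277). The interaction count of 0, with 782 genes at an unadjusted p under 0.05, became 33 in DESeq2, 2 (Klf10 and Rdh9) without the 4 libraries numbered 1, and stayed 0 in voom. RLE size factors, no filter, a filter of 1 CPM in 3 libraries (which dropped Sult1e1), the 6 HFHS libraries alone, the ribosomal RNA share as a covariate and removal of ribosomal RNA and mitochondrial genes left all these counts at 0. Over 810 refits of 45 other named genes none changed direction, and 27 of the genes passed the threshold in at least 1. Most of these genes were chosen for small p in these libraries, many also for no overlap, so the kept direction is no further support. Of 899 list medians 108 changed sign. With no scaling factor the median of all genes was 0.455 and the count at an unadjusted p under 0.05 was 1411 higher and 41 lower, so directions are relative to TMM. The causes were not tested. Depth limits Sult1e1, Eno2 and the trace-level sex-biased genes. With 8 residual degrees of freedom, genes whose edgeR test misses the threshold are not shown to be equal.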

Other observations

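Complement and coagulation genes lay mostly below 0 on the log2 scale in LKO-HFHS against FLOX-HFHS livers. Of 39 listed complement and coagulation symbols 37 passed the filter, and C1s and C5 were not found under those symbols. Of the 37, 31 had a negative log2 fold change, as had 7709 of all 15982 genes tested. At an unadjusted p under 0.05, 4 were lower and 0 higher, against 1.52% and 1.73% of all genes. Hc, complement component C5, had 267, 244 and 233 CPM in LKO-HFHS, against 417, 354 and 321 CPM in FLOX-HFHS (-0.55 ± 0.19, log2, SE). C9, of the membrane attack complex, had 164, 254 and 193 CPM in LKO-HFHS, against 492, 355 and 306 CPM in FLOX-HFHS (-0.91 ± 0.33, SE). C8a (-0.66 ± 0.24) and F5 (-0.46 ± 0.21), coagulation factor V, were the others. None of the 4 overlapped between the groups. The count of 4 was 0 without LKO-HFHS replicate 3 and 0 without FLOX-HFHS replicate 1. With no scaling factor the list median was 0.24 where that of all genes was 0.455, against -0.21 and 0.01 with TMM. The median of 14 hepatocyte markers was -0.19, and its part in these values was not tested. The list of apolipoproteins and lipoprotein assembly, 24 genes, had 13 positive and 11 negative log2 fold changes and a median of 0.05. Of 27 acute phase genes 26 passed the filter, 18 with a negative and 8 with a positive log2 fold change, and 3 were lower (11.5%) and 2 higher (7.69%) at an unadjusted p under 0.05. The lower ones became 1 without LKO-HFHS replicate 2 and 1 without LKO-HFHS replicate 3, and the higher ones 1 without any HFHS library other than LKO-HFHS replicate 2. Hpx, the heme-binding hemopexin, averaged 2616 ± 155 CPM in LKO-HFHS and 4323 ± 229.6 CPM in FLOX-HFHS (SD, n = 3 each), and Saa3 had a log2 fold change of -1.35 ± 0.39 (SE), and Il1rn, the interleukin receptor antagonist, was higher (1.01 ± 0.32, SE).

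Por, the reductase that gives electrons to microsomal cytochromes P450, had 95.7, 134 and 104 CPM in LKO-HFHS, against 46.3, 62.0 and 59.1 CPM in FLOX-HFHS, without overlap (0.996 ± 0.249, log2, SE). It was called by DESeq2. In the list of xenobiotic cytochromes P450, 29 of 32 genes passed the filter, and Cyp2c44 was not found under that symbol. Por was higher and Cyp1a1, Cyp1a2, Cyp2a12 and Cyp2a22 lower at an unadjusted p under 0.05 (3.45% and 13.8%, against 1.73% and 1.52% of all genes). The 4 lower ones became 2 without LKO-HFHS replicate 2 and 2 without FLOX-HFHS replicate 1, and the higher count was 2 without LKO-HFHS replicate 2 and 2 with the replicate block. The cholesterol synthesis genes Nsdhl (0.75 ± 0.24) and Fdps (0.76 ± 0.28), were higher at that p, of 26 tested (7.69%, against 1.73% of all genes) with a median of 0.30. Over 18 alternative fits this count ran from 1 to 7 and the median from 0.06, without LKO-HFHS replicate 2, to 0.73, with no scaling factor. The count was 7 with the replicate block, 4 without LKO-HFHS replicate 1, 1 without LKO-HFHS replicate 2 and 1 without FLOX-HFHS replicate 1.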
